A study of Rattus norvegicus with 24 samples.

Results

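The comparison is between 4 DBP-DBP and 4 DBP-oil testes of male Fisher 344 rats on postnatal day 35, 8 of the 24 arrays in the series, taken by the exposure given in each sample title. Both groups had been exposed to dibutyl phthalate (DBP) before birth, through dams gavaged daily with 50 mg/kg in corn oil from gestational day 12 to 20. On day 35 the DBP-DBP pups (numbers 124, 128, 133 and 135) received a gavage of 500 mg/kg DBP and the DBP-oil pups (123, 127, 132 and 134) corn oil, and testes were taken 6 hours later. The remaining pubertal groups, 4 oil-oil and 4 oil-DBP pups, had only corn oil before birth and received the same day 35 gavages. They enter the fit and give the response without fetal DBP for comparison. The rats carried no genetic modification. Each array held total RNA of a whole testis without its capsule, so fewer cells of a type and less RNA per cell cannot be told apart. The labels do not tie pups to litters, so pups of a group are treated here as separate animals, and p-values would be too small if some shared a dam.

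DBP is a plasticizer that the gut cleaves to its monoester, the form that reaches the testis. In the pubertal testis its known target is the Sertoli cell, which holds and feeds the germ cells of the seminiferous tubule; in the fetal testis it is known for lowering testosterone synthesis by Leydig cells. Acute cell stress is read out first by immediate early genes, transcription factors that need no new protein to be switched on. NF-kB, held in the cytoplasm by inhibitor proteins until a signal removes them, then drives chemokines, the secreted proteins that attract leukocytes, together with its own inhibitors.

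Values are deposited probe-set intensities, each array scaled to the same trimmed mean. Differences are log2 of intensity plus 16 after centring each array on its median, DBP-DBP minus DBP-oil, with the standard error (SE) and a p-value adjusted over all 31042 probe sets by limma. A gene called higher or lower passed an adjusted p of 0.05, and each gene is represented by its brightest probe set. Per-pup intensities are always given for DBP-oil pups 123, 127, 132 and 134 and then for DBP-DBP pups 124, 128, 133 and 135. Means carry the SD over 4 arrays. The added 16 shrinks the difference of genes with low intensities, and the files carry no detection calls.

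Poly-A spike-in RNA, bacterial transcripts added to each sample before labelling, separated the arrays. Its mean log2 intensity over 27 probe sets was 7.14, 7.18, 6.97 and 7.14 in the DBP-DBP pups and 7.17 and 7.16 in DBP-oil pups 132 and 134. It was 5.79 and 5.85 in DBP-oil pups 123 and 127, and between 5.75 and 5.98 on the 8 arrays without fetal DBP. The DBP-DBP arrays thus all lay in the high class and the DBP-oil arrays were split evenly. The group difference in this signal was 0.61 (p = 0.371 by a two-sided exact permutation test, 0.64 after adjustment over 7 measures; the smallest p the design allows is 0.0286). RNA integrity numbers were 8.5 to 8.9 in DBP-DBP and 8.6 to 8.9 in DBP-oil (exact p = 1). The 3' to 5' ratio of hexokinase was 1.61 ± 0.0696 against 1.76 ± 0.102 (exact permutation p = 0.0571, adjusted 0.3), and that of actin 1.98 ± 0.110 against 2.18 ± 0.152 (exact p = 0.0857, adjusted 0.3). Within DBP-oil, the high class against the low class gave 0 higher and 1 lower probe set by limma, with 2367 at an unadjusted p under 0.05. The class was also fitted as a covariate for the called counts and the named genes. It was not fitted for the medians per pup, the promoter shares, or the overlap with the response without fetal DBP. The intervals of the difference between the 2 responses also lack it. With the class fitted, the contrast rests on DBP-oil pups 132 and 134.

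The acute dose after fetal DBP changed 1623 probe sets (5.23%) at 6 hours, 1131 higher (3.64%) and 492 lower (1.58%). Large changes were increases: 560 probe sets rose at least 2-fold and 56 at least 8-fold, against 99 that fell at least 2-fold and 0 that fell 8-fold. The median difference over all probe sets was -0.06. By gene, 728 of 14217 were higher (5.12%) and 305 lower (2.15%). With the spike-in class added to the fit, 473 genes were higher (3.33%) and 146 lower (1.03%). Without pups 123 and 127 the count of probe sets was 874, and without pups 132 and 134 it was 1160.

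**Figure D1:**
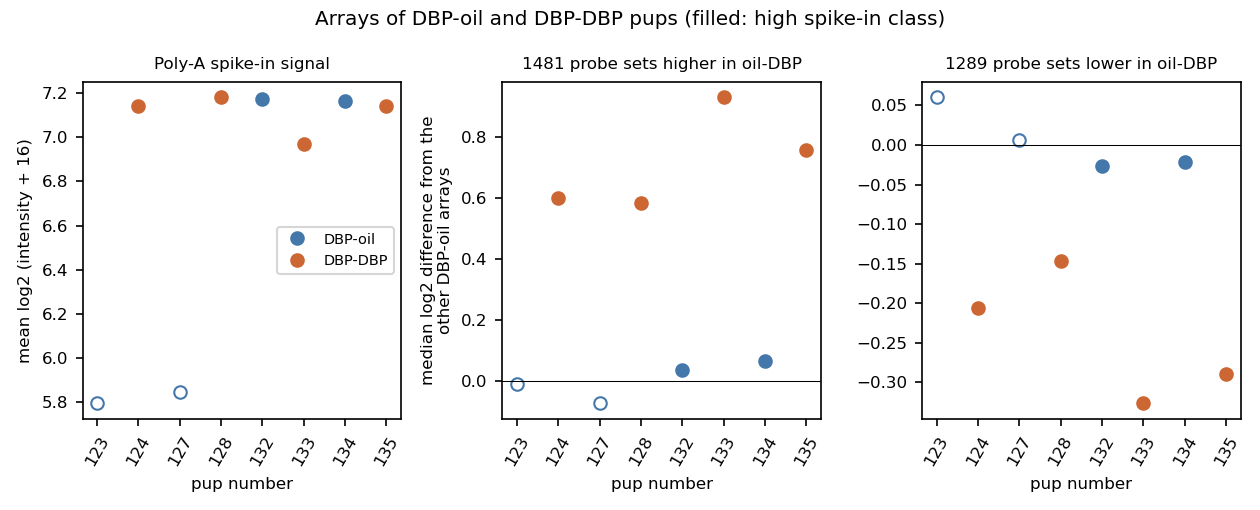
Spike-in signal and response of each pup. Left, mean log2 of intensity plus 16 of the poly-A probe sets; middle and right, the median log2 difference of each array from the other DBP-oil arrays over the 1481 probe sets higher and the 1289 lower in oil-DBP than in oil-oil pups (blue DBP-oil, orange DBP-DBP, filled symbols high spike-in class). All 4 DBP-DBP pups lie above the DBP-oil pups in the middle panel, at 0.58 to 0.93 against -0.07 to 0.07. There the high-class DBP-oil pups 132 and 134 stand at 0.04 and 0.07, and the low-class pups 123 and 127 at -0.01 and -0.07.

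Every DBP-DBP pup carried the response. Over the 1481 probe sets that were higher after the same dose in pups without fetal DBP, the median difference from the DBP-oil arrays was 0.60 in pup 124, 0.58 in pup 128, 0.93 in pup 133 and 0.76 in pup 135. The DBP-oil pups, each set against the other DBP-oil pups, stood at -0.01 (123), -0.07 (127), 0.04 (132) and 0.07 (134). Over the 1289 probe sets that were lower in the pups without fetal DBP, the DBP-DBP pups stood at -0.21, -0.15, -0.33 and -0.29 in the same order. The DBP-oil pups stood at 0.06 (123), 0.01 (127), -0.03 (132) and -0.02 (134). In both sets the high-class DBP-oil pups, 132 and 134, thus lay slightly nearer to the DBP-DBP pups than 123 and 127 did. Pup 133 had the largest median in both directions, and leaving it out lowered the count from 1623 to 1097 probe sets.

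Chemokines held the largest increases in the testis. Of 20 measured, 9 rose and 0 fell (background 5.12% higher and 2.15% lower), with a list median of 0.58 against -0.07 over all genes, and the same number, 9, was called higher with the spike-in class in the fit. Cxcl1, which attracts neutrophils, read 6.87, 1.13, 13.8 and 4.15 in DBP-oil and 5324, 3525, 1842 and 6603 in DBP-DBP. Every DBP-DBP pup was far above every DBP-oil pup, whose values lay near the bottom of the scale. The difference was 7.45 ± 0.29 (adjusted p = 1.99e-12). Ccl2, the monocyte chemokine, went from 20.3, 21.6, 23.6 and 19.3 to 1959, 1596, 2583 and 3597, a difference of 5.96 ± 0.32 (adjusted p = 9.62e-11). Ccl20, which acts on Ccr6-bearing lymphocytes and dendritic cells, read 34.9, 28.1, 41.9 and 5.4 against 874, 820, 988 and 1921 (4.73 ± 0.44, adjusted p = 2.22e-07). No pup of either group crossed into the other for these 3 genes; over all genes the arrays of the groups did not overlap for 7.77% with DBP-DBP higher and 7.44% with it lower. Ccl7, another monocyte chemokine, rose by 4.54 ± 0.24 (16.7 ± 7.95 to 768 ± 238, adjusted p = 9.62e-11). Cxcl10, the interferon-linked chemokine for activated T cells, read 108, 83.6, 118 and 77.6 against 1428, 1370, 1357 and 2175 (3.79 ± 0.20, adjusted p = 9.62e-11). Cxcl2 (2.99), Cx3cl1 (2.88), Cxcl11 (1.82) and Cxcl16 (1.05) were the other calls. Ccl3, Ccl4 and Ccl5 stood at -0.01, -0.37 and -0.08 and were not called, nor was the niche chemokine Cxcl12 (-0.19).

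Sequence upstream of these genes is shown because members of the chemokine, cytokine, NF-kB and immediate early lists rose in the same testes, and the motifs are those of the factors that the same lists hold. RefSeq windows on the GRCr8 rat assembly, from 250 bases before to 50 after each gene's start, were matched by gene number for 42 of the 51 members of these 4 lists that rose. Both strands were searched for the NF-kB site, the CArG box of serum response factor, the cyclic AMP response element TGACGTCA (CRE) and the AP-1 site TGAGTCA; adjacent or overlapping matches on the palindromic NF-kB pattern count as 1 promoter. Of the 42 promoters, 18 held an NF-kB match, 3 a CArG box, 4 a CRE and 4 an AP-1 match. Among promoters of the 11700 genes on the array with a window, the NF-kB match was found in 4.95%, the CArG box in 1.35%, the CRE in 2.86% and the AP-1 match in 3.80%. Among the 593 higher genes with a window the shares were 9.78%, 3.20%, 4.38% and 6.75%, and among the 242 lower genes 4.13%, 1.24%, 0.83% and 4.13%. Of the 85 genes that rose by a log2 of 2 or more, 23.5% held an NF-kB match, 5.88% a CArG box, 7.06% a CRE and 11.8% an AP-1 match. These 85 include members of the 4 lists. A match is a run of letters in this window and not a measurement of binding. The stretches below run 5' to 3' along the gene's strand and cover the 200 bases before the start, for up to 2 of the largest rises with each motif there, with every match in capitals; Egr1, the largest rise in these lists with a CArG box, is not shown. The NF-kB match is in capitals in Cxcl1 at chr14:17479322-17479521 (minus strand), in Ccl20 at chr9:91836959-91837158 (plus strand), and, upstream of an AP-1 match, in Cxcl10 at chr14:15988866-15989065 (plus strand). Il6, at chr4:5894576-5894775 (minus strand), carries a CRE and then an NF-kB match. Egr2 at chr20:21054442-21054641 (minus strand) carries the CArG box, Maff at chr7:112792587-112792786 (plus strand) the CRE, and Il1a at chr3:136990018-136990217 (minus strand) the AP-1 match read on the opposite strand.
Cxcl1: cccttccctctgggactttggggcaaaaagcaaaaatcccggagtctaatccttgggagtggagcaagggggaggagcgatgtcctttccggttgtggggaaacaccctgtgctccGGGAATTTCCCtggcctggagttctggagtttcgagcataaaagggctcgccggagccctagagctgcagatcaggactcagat
Ccl20: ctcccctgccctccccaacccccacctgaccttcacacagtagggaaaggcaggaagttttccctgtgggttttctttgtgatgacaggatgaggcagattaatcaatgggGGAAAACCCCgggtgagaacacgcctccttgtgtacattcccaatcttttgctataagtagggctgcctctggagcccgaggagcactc
Cxcl10: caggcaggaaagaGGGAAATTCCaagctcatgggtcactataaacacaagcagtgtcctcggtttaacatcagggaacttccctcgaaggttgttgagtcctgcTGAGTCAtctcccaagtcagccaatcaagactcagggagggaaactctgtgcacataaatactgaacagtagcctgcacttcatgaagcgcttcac
Il6: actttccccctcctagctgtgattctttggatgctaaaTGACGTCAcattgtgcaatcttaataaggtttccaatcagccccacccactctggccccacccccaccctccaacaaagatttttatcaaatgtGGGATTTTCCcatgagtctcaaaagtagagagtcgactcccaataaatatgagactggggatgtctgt
Egr2: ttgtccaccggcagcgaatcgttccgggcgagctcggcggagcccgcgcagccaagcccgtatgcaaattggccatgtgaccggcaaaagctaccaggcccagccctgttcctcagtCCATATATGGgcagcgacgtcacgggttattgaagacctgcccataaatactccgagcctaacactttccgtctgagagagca
Maff: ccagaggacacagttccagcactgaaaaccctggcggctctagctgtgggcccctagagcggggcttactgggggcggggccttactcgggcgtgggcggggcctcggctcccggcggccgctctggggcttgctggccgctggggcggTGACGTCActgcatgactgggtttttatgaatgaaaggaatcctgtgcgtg
Il1a: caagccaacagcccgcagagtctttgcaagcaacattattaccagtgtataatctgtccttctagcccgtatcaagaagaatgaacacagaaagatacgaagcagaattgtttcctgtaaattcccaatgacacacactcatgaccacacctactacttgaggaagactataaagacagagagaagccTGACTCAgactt

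Fos, Egr1 and other immediate early genes rose. Of 29 measured, 18 were higher and 0 lower (background 5.12% and 2.15%), the median was 1.44, and 17 were called higher with the spike-in class in the fit. Fos, which pairs with Jun proteins in AP-1, read 20.3, 22.7, 36.8 and 18.9 in DBP-oil and 1437, 792, 720 and 1629 in DBP-DBP (4.75 ± 0.27, adjusted p = 1.8e-10). Egr1, a zinc finger transcription factor, went from 161, 177, 254 and 191 to 3682, 2566, 2627 and 5264 (4.00 ± 0.18, adjusted p = 5.8e-12). Every DBP-DBP array was far above every DBP-oil array for both. Maff, a small Maf partner protein, rose by 3.42 ± 0.36 (3.7, 7.05, 14.4 and 24 against 276, 188, 323 and 360, adjusted p = 1.23e-06) and Ier3, a survival regulator, by 3.18 ± 0.19 (297 ± 80.5 to 2800 ± 448, adjusted p = 3.72e-10). Further members were Atf3 (3.05), Fosl1 (3.04), Myc (3.00), Egr2 (2.94), Junb (2.84), Ier2 (2.70), Nr4a1 (1.77), Nr4a3 (1.69) and Jun (1.52). Nr4a3 is the member whose call was absent with the spike-in class. Not all of the families responded: Nr4a2 stood at 0.09, Egr3 at 0.06, Klf4 at 0.18 and the serum response factor gene Srf at -0.04, and Fosb, at 1.44 ± 0.43 with overlapping arrays, had an adjusted p of 0.0624. The second probe set of Fos was not called.

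Genes that shut these signals off were among the calls. The list of 18 holds phosphatases, Sprouty proteins and RNA decay factors, together with Errfi1 and the Gadd45 genes. Of these, 12 rose and 0 fell (background 5.12% and 2.15%), with a median of 1.21 and 11 higher with the spike-in class. Zfp36, which destabilises cytokine mRNAs, read 237, 274, 240 and 191 against 2157, 1590, 1609 and 2282 (2.91 ± 0.13, adjusted p = 9.65e-12). The values within each group lay close together. Spry1, an inhibitor of growth factor signalling to ERK, rose by 2.50 ± 0.18 (adjusted p = 7.79e-09) and Gadd45b, a stress kinase regulator, by 2.50 ± 0.21 (adjusted p = 5.29e-08). Dusp1, the phosphatase of p38 and JNK, went from 196 ± 44.9 to 1066 ± 344 (2.30 ± 0.17, adjusted p = 1.01e-08). Dusp2 (-0.13), Dusp4 (-0.22), Dusp8 (-0.41) and Dusp10 (0.01) were not called.

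Of 26 cytokines and receptors, 13 rose and 0 fell (background 5.12% and 2.15%), with a median of 1.14 and 14 higher with the spike-in class. Il6, whose upstream stretch is printed above, read 5.72, 38.9, 15.7 and 23.8 against 310, 214, 346 and 539 (3.30 ± 0.36, adjusted p = 2.3e-06). Its lowest DBP-DBP pup was above its highest DBP-oil pup. Both parts of its receptor were higher, Il6r by 2.58 and the shared signal chain Il6st by 1.19, as were Stat3 (1.79) and the feedback inhibitor Socs3 (2.49) downstream. Il1a, a cytokine that Sertoli cells make, read 139, 181, 201 and 208 against 1562, 1488, 1085 and 1782 (2.89 ± 0.16, adjusted p = 1.1e-10), and Il1b rose by 2.35 and the receptor Il1r1 by 1.74. Tnfrsf12a, the receptor of the TNF-like ligand TWEAK, had the largest rise in the list, 174 ± 23.4 to 2312 ± 527 (3.58 ± 0.22, adjusted p = 8.7e-10). Csf2, the granulocyte and macrophage growth factor, read 8.19, 11.2, 10.9 and 9.01 against 173, 180, 49.8 and 381. It rose by 2.75 ± 0.51 (adjusted p = 0.00149), with pup 133 the lowest of its group. Csf3 (-0.53), Csf1 (-0.13), Lif (0.06) and Il1rn (-0.10) were not called, and Tnf, at 1.10, was called with the spike-in class and not without it. Il1rn had a mean under 16 in both groups.

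Among 13 NF-kB subunits and regulators 11 rose and 0 fell (background 5.12% and 2.15%), with a median of 1.28, and 11 were higher with the spike-in class. Without pups 132 and 134 the count was 8. Nfkbiz, a nuclear cofactor of NF-kB at the Il6 gene, read 41, 82.3, 41.1 and 3.36 against 860, 774, 678 and 1104 (4.08 ± 0.40, adjusted p = 5.27e-07). DBP-oil pup 134 was far below the other DBP-oil pups and all DBP-DBP pups were above them. Bcl3, a nuclear inhibitor-family protein, read 16.6, 13, 57.7 and 65.6 against 436, 454, 856 and 629 (3.57 ± 0.32, adjusted p = 1.42e-07). Its DBP-oil values followed the spike-in class, and the difference was 2.94 with the class in the fit. Nfkb2, the p100 subunit precursor, showed the reverse order in DBP-oil, 66.1 and 120 in the low class and 23.7 and 13.7 in the high class, and rose by 3.21 ± 0.35 without and 4.05 with the class. Tnfaip3, the ubiquitin-editing brake on NF-kB, rose by 2.70 ± 0.21 (91.7 ± 11.7 to 704 ± 184, adjusted p = 1.68e-08). Nfkb1 (2.20), Relb (1.64) and the inhibitor Nfkbia (1.28) were higher too, whereas the subunit Rela stood at 0.14 and was not called.

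**Figure D2:**
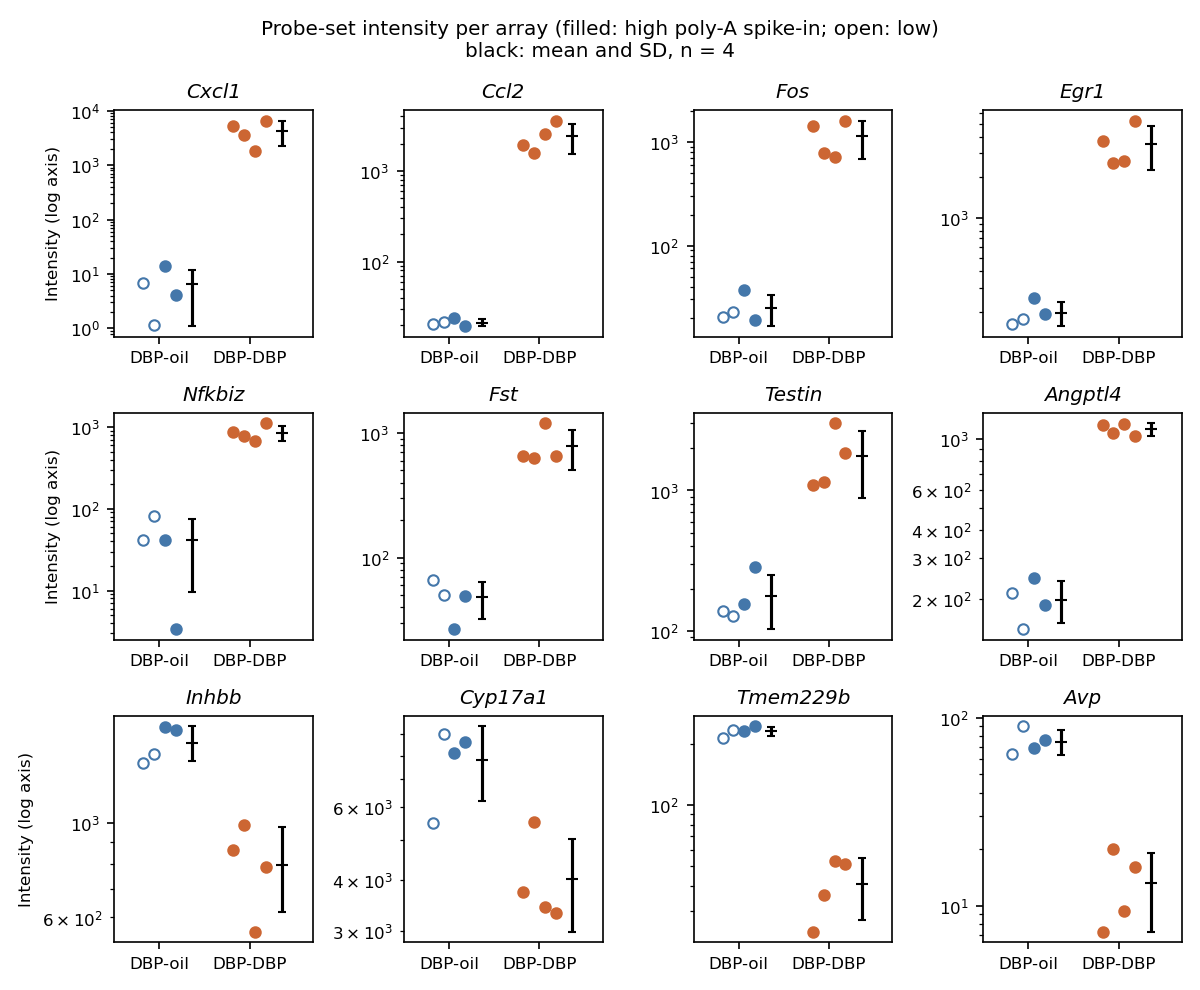
Intensity on each array for 12 genes (log axis), blue DBP-oil and orange DBP-DBP, with filled symbols for arrays of the high spike-in class and the black bar the mean and SD of 4 arrays. The 2 groups are apart for every gene drawn except Cyp17a1, where DBP-oil pup 123 (5493) and DBP-DBP pup 128 (5510) lie at the same height. Those drawn from the largest rises and falls were chosen for groups that do not overlap.

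Of 20 genes in the plasminogen and matricellular list 10 rose and 1 fell (background 5.12% and 2.15%), with a median of 0.97 and the same counts, 10 and 1, with the spike-in class. Plaur, the receptor of urokinase, read 4.54, 2.83, 3 and 8.84 against 167, 118, 380 and 337 (3.53 ± 0.35, adjusted p = 6.5e-07). Plat, the tissue-type plasminogen activator, rose by 2.44, while Plau, urokinase itself, was the gene that fell, by 0.90 (449 to 237, adjusted p = 0.00221). Serpinb2, the urokinase inhibitor PAI-2, read 2.04, 8.6, 5.12 and 0.548 against 226, 138, 609 and 525 (4.06 ± 0.44, adjusted p = 2.41e-06). Receptor and inhibitor were thus higher and the ligand lower in the same testes. Ccn1, a matricellular protein, rose by 3.45 ± 0.19 (64.1 ± 6.28 to 905 ± 282, adjusted p = 9.62e-11), and the aggrecanases Adamts1 and Adamts4 by 3.22 ± 0.22 and 2.53 ± 0.32. Timp1, an inhibitor of metalloproteases, went from 1402 to 5599, a rise of 1.93, and none of Mmp2 (0.08), Mmp3 (-0.07) and Mmp9 (-0.07) was called. Mmp3 had a mean under 16 in both groups.

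Calcb, a calcitonin gene-related peptide that widens vessels, was among the largest rises, from 10.2, 9.06, 3.58 and 5.26 to 529, 554, 1215 and 940 (5.07 ± 0.32, adjusted p = 8.99e-10). Its paralog Calca stood at -0.75 and was not called (adjusted p = 0.394), and the receptor parts Calcrl (-0.05), Ramp1 (0.00) and Ramp2 (-0.33) were not called. Over the 19 vascular signals 5 rose and 0 fell (background 5.12% and 2.15%), with a median of 0.40, and 3 were higher with the spike-in class. Edn1, the vasoconstrictor endothelin, rose by 1.77 ± 0.22 (53.5 ± 4.65 to 228 ± 49.9, adjusted p = 1.7e-05). Adm, adrenomedullin, rose by 1.56 ± 0.34 (adjusted p = 0.00607). Kdr, a VEGF receptor, rose by 1.14 ± 0.22 (adjusted p = 0.0022) and its ligand Vegfa by 1.09, and both calls were absent with the class (adjusted p = 0.0812 and 0.0684).

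In the list of Cebp, glucocorticoid and clock-linked genes 6 of 22 rose and 1 fell (background 5.12% and 2.15%), with a median of -0.03, and 5 and 1 with the spike-in class. Cebpd, a transcription factor of the acute-phase response, rose by 3.13 ± 0.19 (140, 107, 122 and 63.1 against 964, 834, 1358 and 1109, adjusted p = 4.32e-10) and Cebpb by 1.39 ± 0.25 (adjusted p = 0.000917). Bhlhe40, a repressor, rose by 2.73 ± 0.21 and Nfil3, a repressor of the clock output genes, by 2.28 ± 0.23. The other higher calls were Klf9 (0.67) and Sgk1 (0.61, adjusted p = 0.152 with the class), which glucocorticoids induce. Per1, Per2, Clock and the glucocorticoid-induced Fkbp5 and Tsc22d3 lay between -0.26 and 0.04 and were not called. Ddit4, which glucocorticoids also induce, fell by 0.76.

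Genes of the activin family were called in both directions. Fst, follistatin, the protein that binds and neutralises activin, read 65.9, 50.5, 26.6 and 49.2 against 653, 627, 1192 and 658 (3.61 ± 0.30, adjusted p = 3.52e-08). Pup 133 stood above the other DBP-DBP pups, and the groups did not overlap. Inhba, the beta A subunit of activin and inhibin, read 6.04, 40.8, 24.7 and 36.8 against 113, 115, 500 and 381 (2.56 ± 0.53, adjusted p = 0.00376). Inhbb, the beta B subunit that Sertoli cells express for inhibin B, fell by 0.98 ± 0.15, from 1376, 1449, 1668 and 1643 to 860, 985, 554 and 789 (adjusted p = 0.000211). The 4 DBP-DBP values were all below the DBP-oil values. The shared alpha subunit Inha (0.09), Amh (-0.33) and the type II receptors Acvr2a (0.16) and Acvr2b (-0.31) were not called. Of the 23 genes 4 rose and 1 fell (background 5.12% and 2.15%), with a median of 0.09, and with the spike-in class 1 rose and 1 fell: Fst (3.88) and Inhbb (-1.06) were called and Inhba (adjusted p = 0.0576) and Bmp2 (1.35 without the class, adjusted p = 0.134 with it) were not.

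At Sertoli cell junctions 3 of 22 genes rose and 2 fell (background 5.12% and 2.15%), with a median of 0.03, against 3 and 1 with the spike-in class. Testin, a secreted glycoprotein of the Sertoli cell that rises when its contact with germ cells is broken, read 138, 127, 155 and 285 against 1090, 1141, 3000 and 1850 (3.14 ± 0.36, adjusted p = 5.08e-06). Cdh2, the N-cadherin of these contacts, rose by 1.75 ± 0.16 (231 ± 40.3 to 826 ± 138) and Vcl, the actin anchor vinculin, by 1.14 ± 0.17 (1874 ± 126 to 4246 ± 743). The barrier genes Ocln (0.09), Tjp1 (0.07), Cldn11 (0.03) and Cldn3 (-0.07) were not called. Gja1, the gap junction protein connexin 43, fell by 0.46 and Cldn5, a claudin of endothelium, by 0.68 (adjusted p = 0.0136, but 0.2 with the class and 0.0659 and 0.0688 without pups 123 and 133). Vim, whose filaments anchor germ cells in the Sertoli cell, was 6094 ± 555 against 7276 ± 593 (0.24 ± 0.09, adjusted p = 0.198). Tubb6, a beta tubulin, lay outside the list and rose by 3.86 ± 0.22, from 82.7, 91.4, 52.7 and 56.4 to 1140, 812, 1806 and 1400, with a second probe set that was not called.

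Of 15 death receptor, caspase and Bcl2 genes 4 rose and 0 fell (background 5.12% and 2.15%), with a median of 0.23, and 2 were higher with the spike-in class. Fas, the death receptor that germ cells present, read 47.7, 15.4, 51.5 and 65.4 against 167, 129, 344 and 309 (2.01 ± 0.35, adjusted p = 0.000751, and 0.0311 with the class), and neither of its 2 other probe sets was called. Its ligand Faslg stood at 0.14. Mcl1, a survival protein, rose by 0.93 ± 0.11 (1937 ± 223 to 3763 ± 358, adjusted p = 1.12e-05). Cflar, the inhibitor of caspase 8, and Bcl2l11, the death promoter Bim, rose by 1.39 ± 0.37 and 0.99 ± 0.20, and neither was called with the class (adjusted p = 0.142 and 0.0753). Cflar had an adjusted p of 0.108 to 0.134 on leaving out pup 127, 133, 134 or 135 in turn. Receptor, inhibitor, survival and death genes of the pathway were all among the calls. Among 12 p53 targets, Cdkn1a, the cell cycle inhibitor p21, read 548, 797, 769 and 459 against 1979, 1730, 2006 and 1989 (1.57 ± 0.17, adjusted p = 1.95e-06), Ccng1 rose by 0.51 ± 0.13, and Sesn1 and Sesn2 fell by 0.67 ± 0.15 and 0.52 ± 0.13. The adjusted p of Ccng1 was 0.0745 to 0.105 without pup 127, 133 or 134, and that of Sesn2 0.0613 and 0.0699 without pups 134 and 133. Mdm2 (-0.11) and Phlda3 (-0.13) were not called, and with the class 1 target rose and 1 fell.

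Steroid synthesis genes of the Leydig cell showed few calls and a spread that was wide between pups. Of 16, 1 rose and 2 fell (background 5.12% and 2.15%), with a median of -0.07, equal to that of all genes, and 0 and 0 were called with the spike-in class. Cyp17a1, the enzyme that opens the path to androgens, read 5493, 9038, 8096 and 8649 against 3737, 5510, 3441 and 3321. DBP-oil pup 123 lay within the DBP-DBP values. It fell by 0.99 ± 0.24 (adjusted p = 0.0135), but the adjusted p was 0.0564 with the class and 0.0556, 0.0584 and 0.0591 without pups 127, 133 and 135. Nr5a1, the transcription factor SF-1, fell by 0.95 ± 0.21 (562 ± 99.8 to 291 ± 74.8, adjusted p = 0.0072, and 0.159 with the class). Fdx1, the electron carrier of side-chain cleavage, rose by 0.37 ± 0.10 (adjusted p = 0.0407, but 0.262 with the class, 0.0841 to 0.183 without pup 123, 127, 132, 133 or 135, and lost without centring the arrays). Star, which carries cholesterol into mitochondria, read 345, 723, 1050 and 1300 against 670, 530, 1565 and 1213. Its low DBP-oil values were those of the low spike-in class, and its difference was 0.22 ± 0.33 without the class and -0.35 with it, neither called. Cyp11a1, the side-chain cleavage enzyme, was 700 ± 225 against 589 ± 218 (-0.26 ± 0.32, adjusted p = 0.781). Scarb1, the receptor for HDL cholesterol, was 1003 ± 183 against 634 ± 115 (-0.66 ± 0.19, adjusted p = 0.0526). Insl3, a Leydig hormone of testis descent, was 2588 ± 918 against 2642 ± 418 (0.07 ± 0.40, adjusted p = 0.964).

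Each of the 3 lipid lists gave at most 2 calls in a direction. The shares were 0% to 7.69% higher and 5% to 7.69% lower, against a background of 5.12% higher and 2.15% lower. Of 20 cholesterol genes 0 rose and 1 fell (median -0.13), of 18 fatty acid synthesis genes 1 rose and 1 fell (-0.10), and of 26 PPAR targets and oxidation genes 2 rose and 2 fell (-0.10); with the spike-in class the counts were 0 and 1, 1 and 0, and 2 and 1. Angptl4, a PPAR target that inhibits lipoprotein lipase, stood out at 212, 147, 245 and 187 against 1151, 1059, 1160 and 1026 (2.38 ± 0.18, adjusted p = 1.29e-08). Its 4 values were close together in each group. Plin2, the coat protein of lipid droplets, rose by 0.69 ± 0.13 (837 ± 82.4 to 1407 ± 354), and Cpt1a, which admits fatty acids to mitochondria, fell by 0.74 ± 0.16 (885 ± 77.2 to 531 ± 61.1). Other PPAR targets, the peroxisomal enzyme Ehhadh (0.23), the fatty acid hydroxylase Cyp4a3 (0.28) and the thioesterases Acot1 (-0.63) and Acot2 (-0.38), were not called. Dhcr7, the last enzyme of cholesterol synthesis, fell by 0.92 ± 0.19 (928 ± 90.1 to 488 ± 40.8, adjusted p = 0.0042). Elovl5, an elongase of polyunsaturated fatty acids, rose by 0.62 ± 0.11, and Thrsp, a regulator of lipid synthesis, fell by 1.22 ± 0.35 with overlapping arrays (adjusted p = 0.0448, but 0.078 with the class and 0.0528 to 0.171 on leaving out any array other than pup 124).

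Of 16 NRF2 and metallothionein genes 5 rose and 0 fell (background 5.12% and 2.15%), with a median of 0.18, and 3 rose with the spike-in class. Srxn1, sulfiredoxin, rose by 1.75 ± 0.25 (61.3 ± 12.2 to 248 ± 45.6, adjusted p = 9.14e-05), Slc7a11, the cystine transporter, by 1.12 ± 0.18 (448 ± 79.6 to 1029 ± 355) and Hmox1, heme oxygenase 1, by 0.75 ± 0.12 (662 ± 28.5 to 1142 ± 110). Nqo1 (0.03), Gclc (0.10), Gclm (-0.09) and the metallothioneins Mt1 (-0.07) and Mt2A (0.13) were not called. In the heat shock and unfolded protein list 4 of 17 rose and 0 fell, with a median of 0.03. With the class 3 rose, and without pups 132 and 134 the count was 1. Ppp1r15a, the phosphatase subunit GADD34, rose by 1.58 ± 0.20 (356 ± 49.9 to 1123 ± 250, adjusted p = 1.98e-05), Hspa1a, an inducible chaperone, by 0.62 ± 0.15 (adjusted p = 0.051, 0.059 and 0.0546 without pups 134, 133 and 135) and Atf4 by 0.46 ± 0.10. The stress markers Ddit3 (-0.04), Trib3 (-0.07), Hspa5 (0.04) and Chac1 (-0.28) were not called. Among 18 retinoid genes Cyp26b1, which degrades retinoic acid and shields germ cells from it, was the call, a fall of 1.07 ± 0.26 from 2768, 2813, 3432 and 3009 to 1534, 1971, 900 and 1569 (adjusted p = 0.0153). Its adjusted p was 0.0738 with the class and 0.0521 and 0.0832 without pups 132 and 133.

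The largest falls were smaller than the largest rises, with the added 16 limiting how far dim genes can fall, and belonged to no shared list. Tmem229b, a transmembrane protein, read 215, 235, 234 and 245 against 23.5, 35.8, 53 and 51 and fell by 2.18 ± 0.25 (adjusted p = 4.4e-06). Nat8f5, an acetyltransferase-family gene, read 206, 239, 241 and 230 against 61.9, 72.6, 33.8 and 48.7 (-1.85 ± 0.26, adjusted p = 4.97e-05). Cxcr4, the receptor of the niche chemokine Cxcl12, read 240, 322, 310 and 432 against 99, 93.1, 66.4 and 89.5 (-1.73 ± 0.32, adjusted p = 0.00134), and its 2 other probe sets fell as well. All 12 of the largest falls named here were chosen from called genes whose groups do not overlap. Slc25a45, a mitochondrial carrier, fell by 1.71 ± 0.30 (536 ± 43.2 to 162 ± 53.9) and Cmtm8, a membrane protein, by 1.60 ± 0.27 (401 ± 83.2 to 134 ± 75.4). Camsap3, which stabilises microtubule minus ends, fell by 1.49 ± 0.21 (484 ± 33.9 to 169 ± 44.4), and Mgat4b, an N-glycan branching enzyme, by 1.44 ± 0.23 (763 ± 19.1 to 285 ± 86.9). Scx, the tendon transcription factor scleraxis, was lower at 557 ± 59.8 to 192 ± 18.6 (-1.48 ± 0.18). Avp, vasopressin, read 64, 89.9, 68.8 and 76 against 7.23, 19.9, 9.32 and 16 (-1.67 ± 0.26, adjusted p = 0.000242). In pups without fetal DBP, Avp was 23.9 ± 5.45 in oil-oil and 37.1 ± 15.5 in oil-DBP, with every array below the DBP-oil arrays. Pax8 (-1.48 ± 0.35), Tle6 (-1.46 ± 0.29) and Fbxo41 (-1.43 ± 0.39) were also among the 12 and were not called with the spike-in class (adjusted p = 0.165, 0.0531 and 0.145). Pax8 went from 104 ± 17.2 in DBP-oil to 29.7 ± 16.1 in DBP-DBP. It was 37.4 ± 29.5 in oil-oil and 34.1 ± 9.32 in oil-DBP, so DBP-oil was the group that stood apart. Without pup 124 the adjusted p of Pax8 was 0.0586, and that of Fbxo41 was 0.0564 to 0.164 on leaving out pup 123, 127, 132, 133, 134 or 135.

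**Figure D3:**
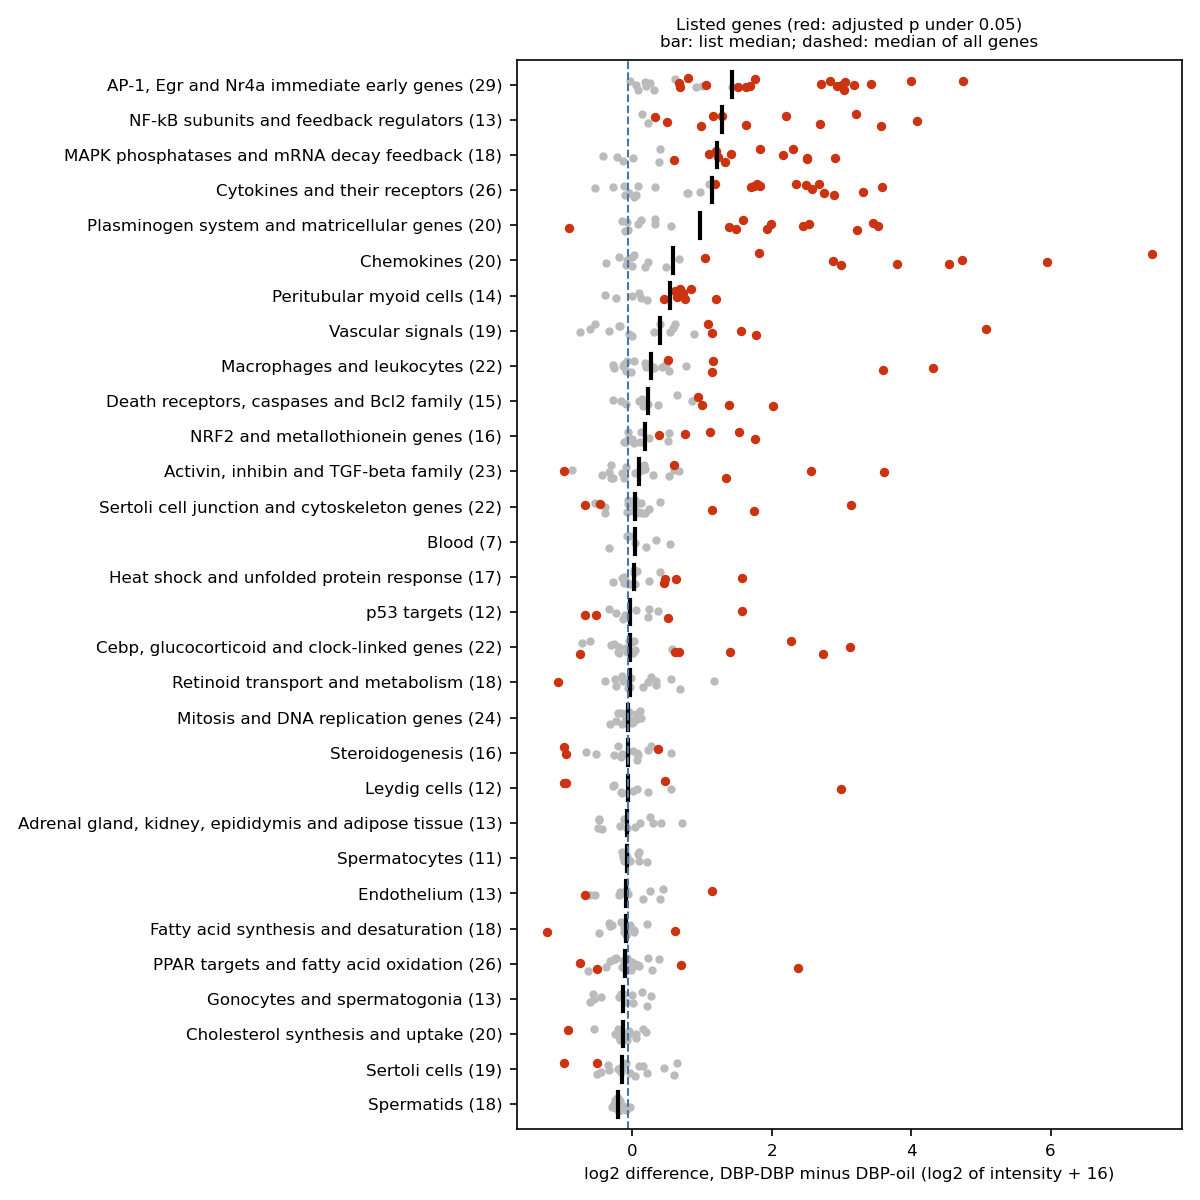
Log2 difference, DBP-DBP minus DBP-oil, for every measured member of the 30 gene lists, with list sizes in brackets, ordered by median (red, adjusted p under 0.05 by limma; black bar, list median; dashed line, median of all genes, -0.07). Immediate early, NF-kB, feedback, cytokine and plasminogen lists have medians of 0.97 to 1.44, and spermatid genes lie together just below 0.

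The labelled tissue was checked by its markers. Prm1, a protamine of spermatids, was 29774 ± 3184 and 25957 ± 928 in the 2 groups, Sycp3, of meiotic chromosomes, 14210 ± 585 and 13319 ± 1027, and Clu, a secreted Sertoli protein, 23099 ± 727 and 21090 ± 1295, none of them called. Germ cell lists gave no calls: 0 of 13 gonocyte and spermatogonial genes (Kit, the receptor of differentiating spermatogonia, 184 ± 73.5 against 160 ± 17.5), 0 of 11 spermatocyte genes and 0 of 18 spermatid genes. At a background of 5.12% higher and 2.15% lower, lists of this size give few calls. Centring on the 75th percentile called 2 gonocyte and spermatogonial genes lower, and quantile normalization 1. Without pups 132 and 134, 1 spermatid gene was lower. The spermatid genes all lay below 0, between -0.30 and -0.03 with a median of -0.21, or -0.10 with the spike-in class, and their summed intensity was 152347 to 200790 in DBP-oil and 150677 to 167023 in DBP-DBP. Of 24 mitosis and replication genes 0 were called (median -0.06). Sertoli markers gave 0 higher and 2 lower of 19 (background 5.12% and 2.15%), and 0 and 1 with the class, the 2 being Inhbb and Fabp3 (-0.51 ± 0.13, adjusted p = 0.0172, but 0.138 with the class and 0.0544 and 0.0925 without pups 127 and 133). Leydig markers gave 2 higher and 2 lower of 12, and 1 and 0 with the class. Vcam1, an adhesion molecule that Leydig and endothelial cells both carry, rose by 2.99 ± 0.23, from 380, 391, 310 and 291 to 2153, 2030, 3774 and 4039.

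Smooth muscle genes of the peritubular cells had the largest share of higher genes among the 10 marker lists. Of 14, 8 were higher and 0 lower (background 5.12% and 2.15%), with a median of 0.53, and the same number, 8, with the spike-in class. The count was 7 without pups 123 and 127 and 5 without pups 132 and 134. Tagln, an actin-binding protein, read 566, 582, 415 and 442 against 1108, 1230, 1099 and 1288 (1.20 ± 0.12, adjusted p = 6e-07). Actg2, the enteric actin, rose by 0.84 ± 0.13 (256 ± 20.5 to 477 ± 45.0), Cnn1, calponin, by 0.76 ± 0.14 and Tpm1, a tropomyosin, by 0.73 ± 0.10. Acta2, the smooth muscle actin, rose by 0.61, and Myh11 (0.00), Mylk (0.10) and Smtn (-0.23) were not called. The list's summed intensity was 12370 to 13296 in DBP-oil and 16551 to 17861 in DBP-DBP.

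A minority of leukocyte markers was called. Of 22, 5 were higher and 0 lower (background 5.12% and 2.15%), with a median of 0.26, and 4 with the spike-in class. S100a9 and S100a8, calcium-binding proteins that neutrophils carry in bulk, gave the largest rises. S100a9 read 42.6, 18.4, 18.5 and 65.4 against 429, 390, 1806 and 2860 (4.32 ± 0.61, adjusted p = 6.55e-05), and S100a8 19.3, 7.24, 18.6 and 5.04 against 156, 141, 529 and 894 (3.59 ± 0.48, adjusted p = 3.51e-05). Pups 133 and 135 were several times higher than pups 124 and 128 for both genes. Lyz2, lysozyme of myeloid cells, was likewise highest in pups 133 and 135, at 862, 708, 827 and 739 against 1116, 1039, 3042 and 2818 (1.15 ± 0.27, adjusted p = 0.0125, but 0.0776 with the class and 0.0689 and 0.0693 without pups 133 and 135), and Cd14, the co-receptor for bacterial lipopolysaccharide, rose by 1.14 ± 0.20. The pan-leukocyte marker Ptprc stood at 0.77 (adjusted p = 0.119), Csf1r at -0.13, Itgb2 at 0.02 and Cd3e at -0.27, none called, and 1 of the 22, Itgam, had a mean under 16 in both groups. The summed intensity was 5557 to 7308 in DBP-oil and 7738 to 12905 in DBP-DBP, and 5486 to 7246 against 7153 to 10376 without S100a8 and S100a9. The part of these cells in the chemokine and cytokine values was not tested. Blood genes gave 0 calls of 7, with sums of 7372 to 10971 and 8382 to 19986, and endothelial genes gave 1 higher (Kdr) and 1 lower (Cldn5) of 13, and 0 and 0 with the class. Markers of adrenal gland, kidney, epididymis and adipose tissue gave 0 calls of 13, with sums of 238 to 381 in DBP-oil and 238 to 380 in DBP-DBP.

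The same dose given to pups without fetal DBP, on other arrays of the same fit, called 1481 probe sets higher (4.77%) and 1289 lower (4.15%). The fit gave each probe set the same SE in both responses, as for Cxcl1 (0.29 and 0.29). A probe set with a small SE is therefore more easily called in both, so the lists are not independent. The part of this shared SE in the overlap was not tested. Of the higher lists 959 probe sets were shared, 84.79% of the 1131 after fetal DBP and 64.75% of the 1481 without it. Of the lower lists 301 were shared, 61.18% of 492 and 23.35% of 1289. The sign was the same after fetal DBP for 98.11% of the 1481 and 93.64% of the 1289. For comparison, 5275 of all 14217 genes lay above 0 after fetal DBP and 8942 below. Over those probe sets, which were chosen in the pups without fetal DBP, the median was 0.70 after fetal DBP against 0.92 for the increases, and -0.24 against -0.49 for the decreases. The test of the difference between the responses, the interaction of fetal and postnatal DBP, called 0 probe sets (0.0%), with 1466 at an unadjusted p under 0.05 by limma and a smallest adjusted p of 0.672.

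**Figure D4:**
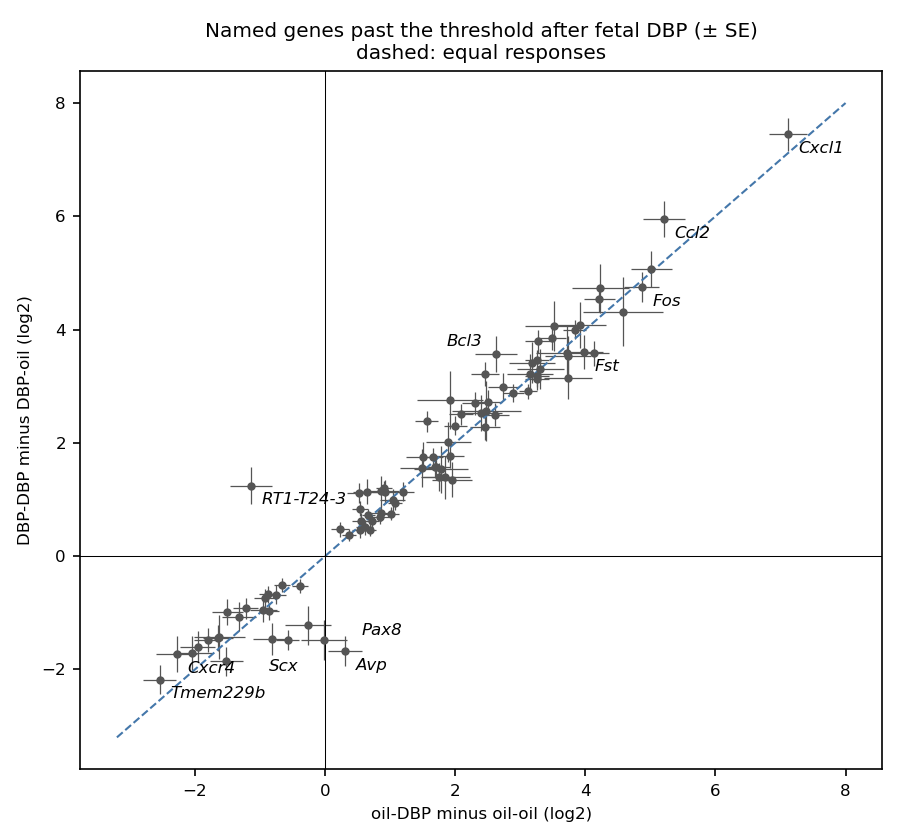
Response after fetal DBP (vertical) against the response without it (horizontal), both as log2 differences with SE, for the named genes past the threshold after fetal DBP; the dashed line marks equal responses. Most genes lie near the line, from Tmem229b (-2.18 and -2.54) to Cxcl1 (7.45 and 7.11), and Avp, Pax8, Scx and RT1-T24-3 lie away from it.

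For 86 of the 93 named genes called after fetal DBP the 95% interval of that difference included 0. The response of Cxcl1 was 7.45 ± 0.29 after fetal DBP and 7.11 ± 0.29 without, a difference of 0.34 (95% interval -0.52 to 1.19). For Fos it was 4.75 against 4.87 (-0.12, -0.91 to 0.67), for Egr1 4.00 against 3.84 (0.17, -0.35 to 0.69) and for Il6 3.30 against 3.31 (-0.01, -1.07 to 1.06). Fst (3.61 against 3.98, difference -0.38, -1.25 to 0.49), Testin (3.14 against 3.73, -0.59, -1.66 to 0.48) and Inhbb (-0.98 against -0.86, -0.12, -0.57 to 0.33) were likewise not separable at this precision. Angptl4 (2.38 against 1.56, difference 0.82, 0.29 to 1.35) and Adamts1 (3.22 against 2.45, 0.76, 0.12 to 1.40) had unadjusted intervals above 0 and did not pass the adjustment. All these intervals were taken without the spike-in class, which was low on every array without fetal DBP and high on every DBP-DBP array. With the class fitted, the response of Adamts1 after fetal DBP was 2.99. In the steroid list 1 rose and 2 fell after fetal DBP, and 2 rose and 5 fell without it (background there 6.13% higher and 5.98% lower). Cyp17a1 fell by 0.99 and 1.50 (difference 0.52, -0.18 to 1.22) and Star stood at 0.22 and 1.11 (-0.89, -1.86 to 0.08).

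The 5 genes with the smallest interaction p were Avp, RT1-T24-3, Scn1a, Peds1 and Leng9. Avp stood at -1.67 ± 0.26 after fetal DBP and 0.31 ± 0.26 without, a difference of -1.98 (95% interval -2.76 to -1.20, unadjusted p = 3.3e-05, adjusted p = 0.672). Its mean intensity was 23.9 in oil-oil, 37.1 in oil-DBP, 74.7 in DBP-oil and 13.1 in DBP-DBP. RT1-T24-3, a class I histocompatibility gene, read 16.1, 8.21, 19.1 and 7.59 in DBP-oil and 54.2, 64.4, 26.7 and 72.3 in DBP-DBP. It was the gene called in opposite directions, at 1.24 ± 0.32 (adjusted p = 0.0245) after fetal DBP and -1.13 ± 0.32 (adjusted p = 0.0314) without it (difference 2.38, 1.42 to 3.33; unadjusted p = 4.33e-05, adjusted 0.672), and its call was lost with the spike-in class (adjusted p = 0.132) and without pup 124, 127, 128, 134 or 135 (0.0588 to 0.0992). Near-identical histocompatibility genes may share its probes. Scn1a, a sodium channel subunit with intensities of 3.29 to 21.4 on the 8 arrays, stood at 0.41 and -1.32 (difference 1.73, 0.98 to 2.49). Peds1, an enzyme of plasmalogen synthesis, stood at -0.04 and 0.81 (-0.84, -1.22 to -0.47) and Leng9 at 0.95 and -0.94 (1.89, 1.02 to 2.77). None of the 5 passed the adjustment for 31042 probe sets.

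**Figure D5:**
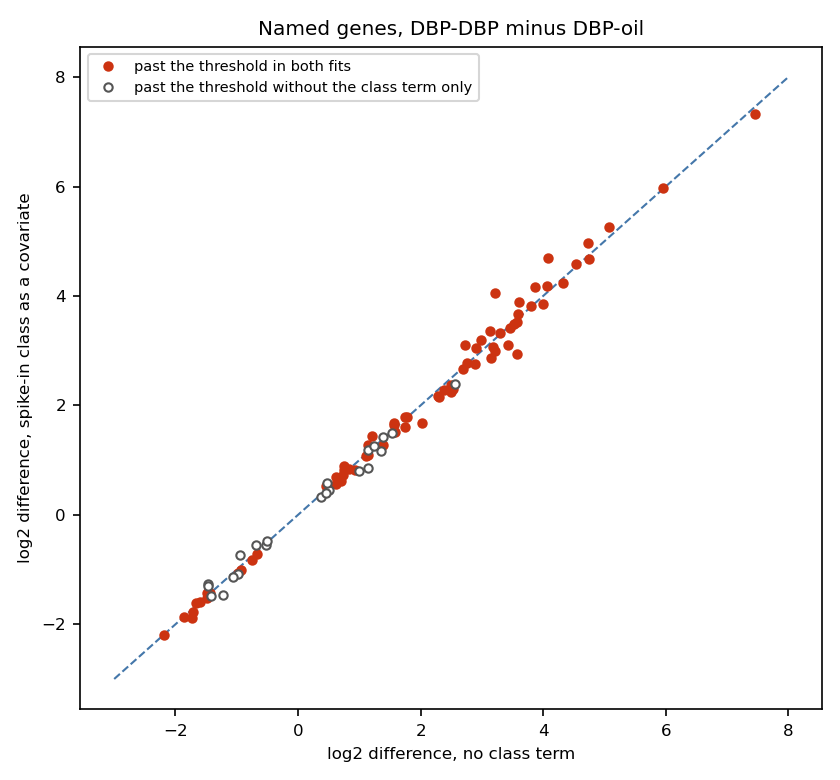
Log2 difference of the named genes past the threshold, without (horizontal) and with (vertical) the poly-A spike-in class as a covariate; red genes pass in both fits and open ones lose the call with the class. Points lie along the dashed line of equal values, and the open points, 22 of 93, lie between -1.48 and 2.56 on the horizontal axis.

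Fitting the spike-in class ended the calls of 22 named genes. Leaving out DBP-oil pups 123 and 127, of the low class, ended 23. Leaving out DBP-oil pups 132 and 134, of the high class, ended 21. Each of these fits rests on fewer DBP-oil arrays, and the part of the class in the losses was not tested. Of the 105 genes named here 93 passed the threshold, all 93 kept their sign with the class in the fit, and 71 were still called. The calls lost lay between -1.48 (Pax8) and 2.56 (Inhba), and included Cyp17a1, Nr5a1, Fdx1, Bmp2, Gpx2, Kdr, Cyp26b1, Fabp3, Pdgfra (0.47 ± 0.14) and Lyz2. Leaving out a single array ended the call of 17 named genes, 15 of them without pup 133, and the call of Pdgfra was lost on leaving out any single array other than pup 127 (adjusted p = 0.0529 to 0.175). The difference of Cxcl1 was 7.33 with the class, that of Ccl2 5.98, of Fos 4.68, of Egr1 3.86 and of Testin 2.86. Among lower genes Tmem229b stood at -2.19 with the class and Cxcr4 at -1.89. Of the 35 named calls with more than 1 probe set, 17 had another probe set called the same way and 0 had one called the opposite way. Those with no other probe set called include Fos, Fas, Tubb6, Nfkbiz, Plaur, Csf2, Inhba, Bmp2, Kdr, Cflar, Cmtm8 and Pax8.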

How the data were processed

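Testis RNA of 24 rats was measured on Affymetrix Rat230_2 arrays, 4 per group. The deposited values are probe-set intensities on a linear scale, processed with GCOS 1.0 per the submitters' processing notes; how probe sets were summarised is not stated in the sources used here. Each deposited array has a mean near 500.2 after trimming 2% at each end. From these, log2 of intensity plus 16 was centred on each array's median, since the medians spanned 0.155. The 16 arrays of day 35 were fitted in 4 groups with limma 3.58.1 (R 4.3.3; lmFit, eBayes with an intensity trend, two-sided, Benjamini-Hochberg over 31042 probe sets, threshold 0.05), after 57 control probe sets were left out; the fit was tested on simulated data. Of the probe sets, 20826 carry 1 gene symbol, 436 several and 9780 none in the platform annotation; genes were named from those with 1, and 14217 genes were represented by their brightest probe set. Symbols and promoters were matched to RefSeq tables of the GRCr8 assembly by gene number.

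Named were the 12 largest rises and 12 largest falls with groups that do not overlap, up to 4 called genes per list, a fixed set of 21 genes, of which 1 is not reported here, and the 5 smallest interaction p-values; other listed genes are given by value. The comparison, the gene lists and this rule were chosen with earlier results of these data known. The spike-in class was split at the midpoint, 6.48, of the largest gap in mean poly-A signal. Arrays number 4 per group, which limits the precision. Alternatives covered scaling, pseudocount (1 and 64), a filter on mean intensity under 100, the variance model, array weights, the samples fitted, spike-in class and signal, RNA integrity, 2 Trizol extractions (both among pups without fetal DBP), adjacent pup numbers and leaving out each array. DBP-oil and DBP-DBP pups share no replicate number. Adjacent pups deviated together with correlations of 0.106, 0.067, 0.091 and 0.141, not all above 0.1, so they were not treated as pairs.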

Additional observations from a re-analysis of the deposited data

Results flagged for a closer look

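Single pups stood apart from the other 3 of their group in 13 of 210 groups of 4 arrays checked over the named genes, by a gap to the nearest that passed Dixon's 95% critical value on the log2 scale; chance gives about 1 in 20. Among DBP-DBP pups, pup 133 was highest for Fst (1190 against 627 to 658) and Peds1 (430 against 303 to 311) and lowest for Sesn2 (530 against 630 to 655). Pup 128 was lowest for Cdkn1a (1730 against 1979 to 2006), Atf4 (1620 against 2069 to 2180) and Bhlhe40 (296 against 349 to 362). Pup 135 was highest for Cxcl10 (2180 against 1357 to 1428) and Edn1 (302 against 197 to 215). Among DBP-oil pups, pup 134 was lowest for Tle6 (33.8 against 57.0 to 58.8) and highest for Ppp1r15a (431 against 328 to 337) and Scn1a (17.7 against 3.29 to 4.06). Pup 132 was highest for Cebpb (187 against 122 to 128). For Clu, pup 127 read 23700 against 22030 to 23400 and stood apart after centring on the array median. The poly-A spike-in signal, outside the gene measurements, was 0.615 higher in DBP-DBP than in DBP-oil on the log2 scale, through DBP-oil pups 123 and 127.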

How the results depend on the processing

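The count of 1623 probe sets (1131 higher, 492 lower) lay between 1285 and 2024 under the other scalings, pseudocounts, filter, variance model, array weights, RNA integrity, extraction and sample choices run with all 8 arrays and no spike-in term. It was 935 (706 higher, 229 lower) when the spike-in class was a covariate, 874 (676, 198) without pups 123 and 127, and 1080 (274 lower) with the spike-in signal as a covariate; without pups 132 and 134, an alternative chosen after seeing the data, 307 were lower. As both removals leave 2 DBP-oil arrays, the share due to fewer samples and that due to the class were not separated. Fitting only the 8 arrays with the class, also chosen after seeing the data, gave 1268. Leaving out 1 array in turn gave 1097 to 1519 in all, 827 to 1078 higher and 270 to 458 lower; the lower count moved most without pup 133 (270), pup 135 (294) and pup 123 (322). The interaction gave 0 in all 23 alternatives run for it. Taking adjacent pup numbers as a replicate block gave 1655 (1161 higher, 494 lower), changed the call of 2 of the 105 named genes, and gave 0 for the interaction. Of the 93 named calls, 63 held under all 25 alternatives. Sign changes were seen only in genes that were not called. Star was -0.345 with the class, -0.345 without pups 123 and 127, -0.345 with the class on 8 arrays and -0.202 with the spike-in signal, and -0.134 to 0.462 with single arrays left out. Insl3 was -0.400 without pups 132 and 134 and -0.169 to 0.250 with single arrays left out, Sycp3 was 0.013 after quantile normalization, and with single arrays left out Kit was -0.326 to 0.041 and Peds1 -0.143 to 0.006. The cause of these moves was not tested.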
